A study of Mus musculus with 4 samples.

Results

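Metallothioneins and the proteins that move zinc across membranes were followed through 10 cell classes of the mouse inguinal fat pad, a subcutaneous depot of white adipose tissue. The set holds 7 of the 53715 genes in the count files, taken by gene symbol: the metallothioneins Mt1 and Mt2, the zinc-sensing transcription factor gene Mtf1, the zinc transporter genes Slc30a1 and Slc30a10 of the exporter family, and Slc39a10 and Slc39a14 of the importer family. They were chosen by their differences in UMI counts between the labelled groups, which were already known, so those differences are given as a description without a test. Comparisons between cell classes did not enter the choice and are tested.

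Nuclei were isolated from the fat pad of C57BL/6N mice aged 6 months and profiled with a Singleron GEXSCOPE single-nucleus kit that counts unique molecular identifiers (UMIs). By their labels, 2 libraries are wild type and 2 are PTRF knockout, each from a separate mouse by its title. Cavin1, once named Ptrf, encodes cavin-1, which coats caveolae. All 4 mice share strain, tissue and age, and the labels used here do not say how the knockout allele was made or whether it affects all cells.

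The genotype labels did not match Cavin1. Its level over all nuclei was 2.02 and 0.937 CPM (UMI counts scaled to library size with TMM factors) in labelled wild type 1 and 2, as the libraries are called below, and 47.9 and 57.3 CPM in labelled knockout 1 and 2. In adipocyte nuclei the 4 levels were 2.82, 1.25, 90.6 and 99.0 CPM in the same order. Cavin1 was therefore low in the libraries labelled wild type, and the names of the deposited files also carry the genotype opposite to the labels. Every direction below is between labelled groups, as "labelled knockout" against "labelled wild type", and the genotype behind a label was not settled here.

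Metallothioneins are small cysteine-rich proteins that bind zinc and copper in the cytosol. When zinc rises, the transcription factor MTF1 binds metal response elements (MREs) in their promoters and in that of Slc30a1, and glucocorticoids also raise metallothionein transcription. Proteins of the SLC30 family carry zinc out of the cytosol, while those of the SLC39 family carry it in. In fat, zinc handling is tied to insulin action and to inflammation.

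Mt2 and Mt1 lie next to each other on mouse chromosome 8, on the plus strand, at chr8:94172664-94173568 and chr8:94179082-94180327 of GRCm38 (GENCODE M21), with 5513 bases between them. Their promoters are shown because both hold repeated MRE letters, the element that zinc-bound MTF1 reads. Each window runs from 250 bases before to 50 bases after the RefSeq start site (GRCm38.p6, plus strand, 5′ to 3′), and capitals mark matches of the MRE core, TGCACNC or TGCGCNC, on either strand. The first window is chr8:94172368-94172667, the second chr8:94178839-94179138, and the third, of Slc30a1, chr1:191906531-191906830.
Mt2: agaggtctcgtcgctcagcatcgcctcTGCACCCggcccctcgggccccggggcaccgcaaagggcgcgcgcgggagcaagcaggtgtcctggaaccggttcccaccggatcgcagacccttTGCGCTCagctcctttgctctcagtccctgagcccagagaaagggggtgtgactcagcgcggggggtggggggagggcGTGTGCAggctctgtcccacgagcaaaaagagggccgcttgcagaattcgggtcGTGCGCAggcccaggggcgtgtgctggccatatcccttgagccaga
Mt1: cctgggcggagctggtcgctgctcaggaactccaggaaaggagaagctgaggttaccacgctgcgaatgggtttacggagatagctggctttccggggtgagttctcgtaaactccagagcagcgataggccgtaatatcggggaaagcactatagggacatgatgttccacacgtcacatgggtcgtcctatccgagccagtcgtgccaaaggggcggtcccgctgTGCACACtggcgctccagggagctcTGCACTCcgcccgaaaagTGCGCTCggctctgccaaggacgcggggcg
Slc30a1: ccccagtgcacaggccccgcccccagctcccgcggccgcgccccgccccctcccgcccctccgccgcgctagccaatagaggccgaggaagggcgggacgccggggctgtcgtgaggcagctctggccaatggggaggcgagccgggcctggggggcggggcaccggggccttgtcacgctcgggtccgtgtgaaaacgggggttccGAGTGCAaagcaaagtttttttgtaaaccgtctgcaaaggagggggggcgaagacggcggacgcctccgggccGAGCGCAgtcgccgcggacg

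The Mt2 window held 4 matches, at positions -223, -128, -50 and 4 relative to the start site, and the Mt1 window held 3, at -23, 2 and 20. Slc30a1 had 2 matches and Slc30a10 had 3, of which 2 overlapped on opposite strands. Mtf1 and both windows of Slc39a10 had 0. Of 32817 promoter windows of the same length, 25.7% held at least 1 match, 1.97% held 3 or more and 0.518% held 4 or more. The antioxidant response element core, TGACNNNGC on either strand, occurred 1 time each in the Mt2 and Slc30a1 windows and in 12.4% of all windows. A match gives letters in a window and is not evidence of binding. The counts hold for the windows around the listed RefSeq start sites. Bases outside them were not searched, so a gene, Mt1 included, may have further elements or start sites there. Of the 7 genes, 6 had a RefSeq window, Slc39a14 being the one without.

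The kept nuclei numbered 15528, 6664, 11988 and 15887 in labelled wild type 1 and 2 and labelled knockout 1 and 2, with a median of 844.5 to 1401 UMIs each. Of the barcodes of a library, 1.94% to 2.52% also occurred in another library. Clustering gave 16 clusters, and 10 classes that held 50 or more nuclei in each library entered the comparisons. Adipocyte nuclei formed 1 cluster with 10 of 12 adipocyte markers among its 100 leading genes, including Adipoq, Plin1 and Pparg. Their summed marker level was 26517, 16582, 19439 and 48457 CPM, highest in labelled knockout 2. Inguinal fat of mice also holds mammary gland, and 2 clusters were luminal-like and 1 myoepithelial-like. The vascular endothelial-like cluster also held 5 of 6 lymphatic markers among its leading genes, and cluster 1, with 10023 nuclei, had no marker and stays unnamed.

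Metallothionein transcripts were most abundant in adipocyte nuclei of the libraries labelled wild type and were far lower in those labelled knockout. Mt2 stood at 79.0 and 74.2 CPM in adipocyte nuclei of labelled wild type 1 and 2, and at 2.31 and 9.33 CPM in labelled knockout 1 and 2. The groups did not overlap, and the log2 difference, labelled knockout minus labelled wild type, was -3.59 (SE 0.46, n = 2 libraries a group). Mt1 stood at 92.6, 68.6, 7.25 and 16.4 CPM in the same order, again without overlap, with a log2 difference of -2.72 (SE 0.42). These differences helped to choose the genes. Over all 17732 genes tested in adipocyte nuclei, edgeR's quasi-likelihood test called 0.35% at an adjusted p under 0.05, 0.164% higher and 0.186% lower in the libraries labelled knockout. Groups of 2 libraries failed to overlap for 13.1% of genes with labelled knockout above and for 12.1% with it below.

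**Figure D1:**
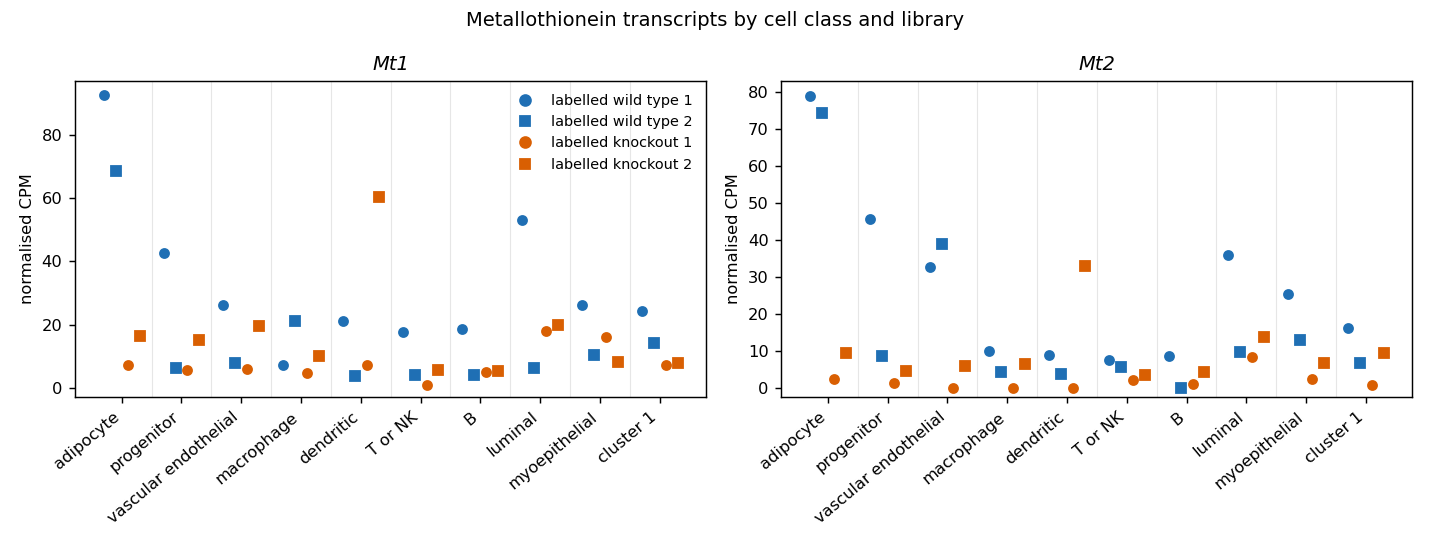
Normalised CPM of Mt1 and Mt2 (linear axis) in 10 cell classes, with 1 point per library, circles for replicate 1 and squares for replicate 2. Adipocyte nuclei of the libraries labelled wild type stand between 68.6 and 92.6 CPM for Mt1 and between 74.2 and 79.0 CPM for Mt2, while those labelled knockout stand at or below 16.4 and 9.33 CPM.

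Few nuclei had a metallothionein UMI in any library. In adipocytes, 10.9%, 8.73%, 0.902% and 4.11% of nuclei had at least 1 Mt1 UMI in labelled wild type 1 and 2 and labelled knockout 1 and 2. For Mt2 the shares were 9.60%, 8.48%, 0.395% and 2.52%. The median adipocyte nucleus held 1694.5, 1601, 1392 and 3407 UMIs, so labelled knockout 2 was the deepest and still lay below both libraries labelled wild type. With every nucleus thinned to 500 UMIs, the Mt1 shares were 3.40%, 3.29%, 0.352% and 0.838%, and the Mt2 shares 2.88%, 3.07%, 0.108% and 0.392%.

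T or NK nuclei, in which metallothionein RNA was low, served as a reference for stray RNA in the same libraries. RNA of their own could not be told apart from stray RNA. Their unthinned Mt2 shares were 0.621%, 0.481%, 0.162% and 0.424%, at median depths of 761.5, 722.5, 749.5 and 1508 UMIs. Thinned to 500 UMIs, their Mt2 shares were 0.374%, 0.260%, 0.0998% and 0.170%. The thinned adipocyte share of labelled knockout 1, 0.108%, was thus near that of its T or NK nuclei and is read as background. In the other libraries the adipocyte share was above the T or NK share.

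**Figure D2:**
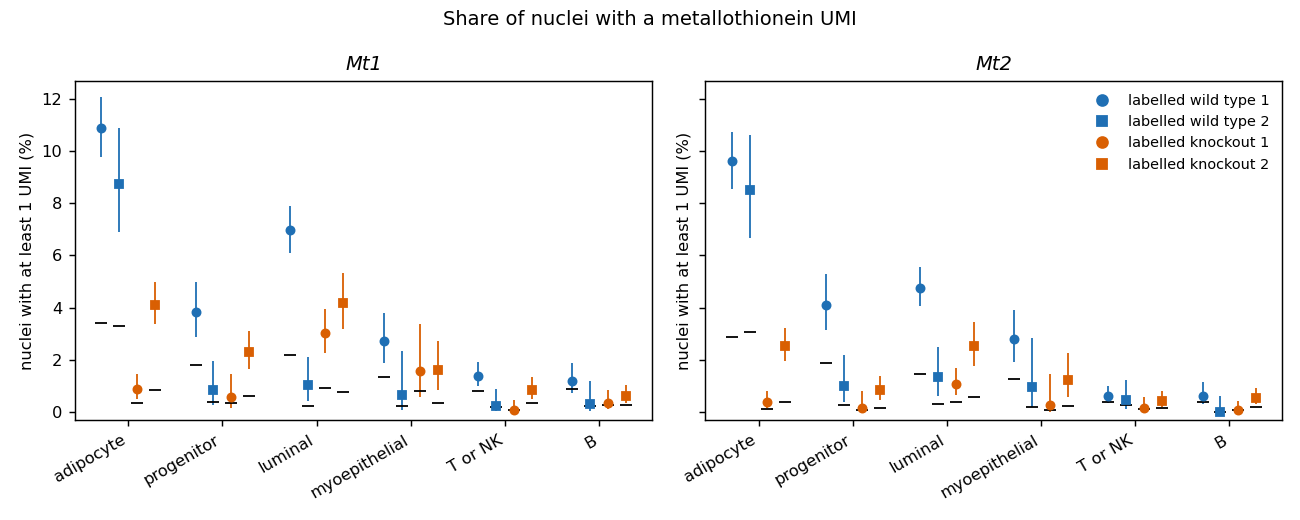
Percentage of nuclei with at least 1 UMI of Mt1 or Mt2 in 6 classes, with 95% exact (Clopper-Pearson) intervals that cover counting error only, and black dashes for the share after thinning each nucleus to 500 UMIs. Adipocyte nuclei labelled wild type stand at 8.48% to 10.9%, and the thinned Mt2 share of adipocytes in labelled knockout 1 lies at 0.108%.

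Mt2 was seen more often in adipocyte nuclei that also held an Mt1 UMI in 3 of the 4 libraries. In labelled wild type 1, Mt2 was seen in 28.9% of nuclei with an Mt1 UMI and in 7.25% of those without. The shares were 19.4% and 7.44% in labelled wild type 2, and 10.9% and 2.16% in labelled knockout 2. In labelled knockout 1, 0 of 16 Mt1-positive nuclei held an Mt2 UMI. Nuclei with an Mt1 UMI were deeper, with medians of 2648 against 1626 UMIs in labelled wild type 1 and 4551 against 3302 in labelled knockout 2. In labelled wild type 2 the medians were close, at 1644.5 against 1592 UMIs. The part of depth in this co-occurrence was not tested.

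The balance between both metallothioneins also differed between libraries. Of Mt1 and Mt2 UMIs together in adipocyte nuclei, Mt1 made up 54.0% and 48.0% in labelled wild type 1 and 2, and 75.9% and 63.8% in labelled knockout 1 and 2. The exact 95% intervals were 50.8% to 57.1%, 41.4% to 54.7%, 56.5% to 89.7% and 57.2% to 70.0%, and they cover counting error only. The Mt1 share was the higher in both libraries labelled knockout, with no overlap between the groups, in a measure that shares its contrast with the choice of genes. The labelled knockout 1 value rests on 22 Mt1 and 7 Mt2 UMIs, the latter read as background above. The order was not particular to adipocytes. Progenitors had it too, at 48.3%, 41.7%, 80.0% and 76.5%, with 4 Mt1 and 1 Mt2 UMIs in labelled knockout 1. Luminal nuclei overlapped, at 59.8%, 38.5%, 68.4% and 59.3%. The 2 genes are close paralogs, and the sources used here do not say how reads that match both were counted.

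Outside adipocytes the order of the libraries varied between classes. In progenitor nuclei Mt2 stood at 45.7, 8.61, 1.39 and 4.61 CPM, a log2 difference of -2.91 (SE 0.77) without overlap. Labelled wild type 1 was far above the other 3 libraries there. Mt1 in progenitors stood at 42.8, 6.15, 5.55 and 15.1 CPM with overlapping groups, and its log2 difference of -1.16 (SE 0.71) became 0.84 without labelled wild type 1. In progenitors, 0.0478% of 12543 genes were called, and 14.6% and 14.4% had labelled knockout above or below without overlap. Mt2 in myoepithelial nuclei, at 25.4, 12.8, 2.28 and 6.59 CPM, was lower in both libraries labelled knockout, where 12.8% of genes had that order. Over the classes in which a gene passed the filter on low counts, Mt1 was lower without overlap in 2 of 5 and Mt2 in 3 of 5, and neither was higher without overlap in any. Beside adipocytes, Mt1 was lower without overlap in cluster 1, at 24.3, 14.3, 7.17 and 7.91 CPM, where 15.7% of genes had that order. That unnamed cluster was shallow, its nuclei holding a median of 0.7 times the median UMIs of their library. It made up 7.98%, 32.3%, 32.5% and 17.2% of nuclei. In luminal nuclei both genes had overlapping groups, and 13.6% of genes had labelled knockout below without overlap.

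Mt2 was also apart in 2 classes where it did not pass the filter on low counts. Vascular endothelial nuclei held 10, 5, 0 and 3 Mt2 UMIs, or 32.8, 39.0, 0 and 5.91 CPM, with both libraries labelled wild type above both labelled knockout, and no fold is given on so few UMIs. Of the 5886 genes tested in that class, 18.9% had this order and 18.5% the opposite one. Lymphatic endothelial markers moved in the same class, with a summed level of 4890, 2416, 387 and 1006 CPM and 3 of 5 tested markers called lower by edgeR in the libraries labelled knockout. None of the 6 markers was at 0 in every library, and their part in the Mt2 values was not tested. In T or NK nuclei Mt2 stood at 7.57, 5.53, 1.94 and 3.31 CPM, where 10.1% of genes had labelled knockout below without overlap. These nuclei are the reference for stray RNA above, so that reference itself was apart between the labelled groups. The part of stray RNA in the low counts of other classes was not tested.

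Over all nuclei Mt1 stood at 54.2, 17.6, 8.78 and 14.4 CPM, and Mt2 at 42.8, 17.9, 2.95 and 8.73 CPM. Their log2 differences were -1.63 (SE 0.46) and -2.36 (SE 0.48). These sums mix classes whose shares differ between libraries, so in them alone fewer cells of a type cannot be told apart from less RNA per cell. Adipocytes made up 18.7%, 12.4%, 14.8% and 15.5% of nuclei, with overlapping groups, while their metallothionein levels given above did not overlap. Among 28075 genes tested over all nuclei, 0.103% were called, and 7.6% had labelled knockout below labelled wild type without overlap.

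Luminal nuclei showed another order of libraries for metallothioneins. Cluster 7, whose leading genes Prlr and Pgr encode the prolactin and progesterone receptors, held Mt2 at 42.4, 14.9, 22.7 and 44.4 unscaled CPM (UMIs over the cluster's total, without TMM) in labelled wild type 1 and 2 and labelled knockout 1 and 2. Its groups overlapped, and labelled knockout 2 was the highest. Mt1 in cluster 7 stood at 68.2, 8.50, 19.1 and 46.8 unscaled CPM, also overlapping, but with labelled wild type 1 the highest. Cluster 0, led by the milk protein genes Csn3 and Csn1s1, held Mt2 at 33.6, 2.31, 3.98 and 3.94 unscaled CPM, with labelled wild type 1 alone above the rest. Mt1 in cluster 0 stood at 48.4, 2.31, 17.7 and 12.1 unscaled CPM, with labelled wild type 2 the lowest. In labelled knockout 1 the luminal nuclei carried 66.7% of the library's Mt2 UMIs and the adipocytes 15.6%, out of 45 UMIs in all. The luminal and adipocyte percentages were 26.1% and 31.3% in labelled knockout 2, 25.5% and 53.0% in labelled wild type 1, and 9.30% and 69.2% in labelled wild type 2. Within each library labelled knockout, Mt2 in cluster 7 was above Mt2 in adipocyte nuclei, at 22.7 against 2.53 and at 44.4 against 8.45 unscaled CPM. Within each library labelled wild type it was below, at 42.4 against 74.8 and at 14.9 against 75.6. The difference in order between the groups was not tested.

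**Figure D3:**
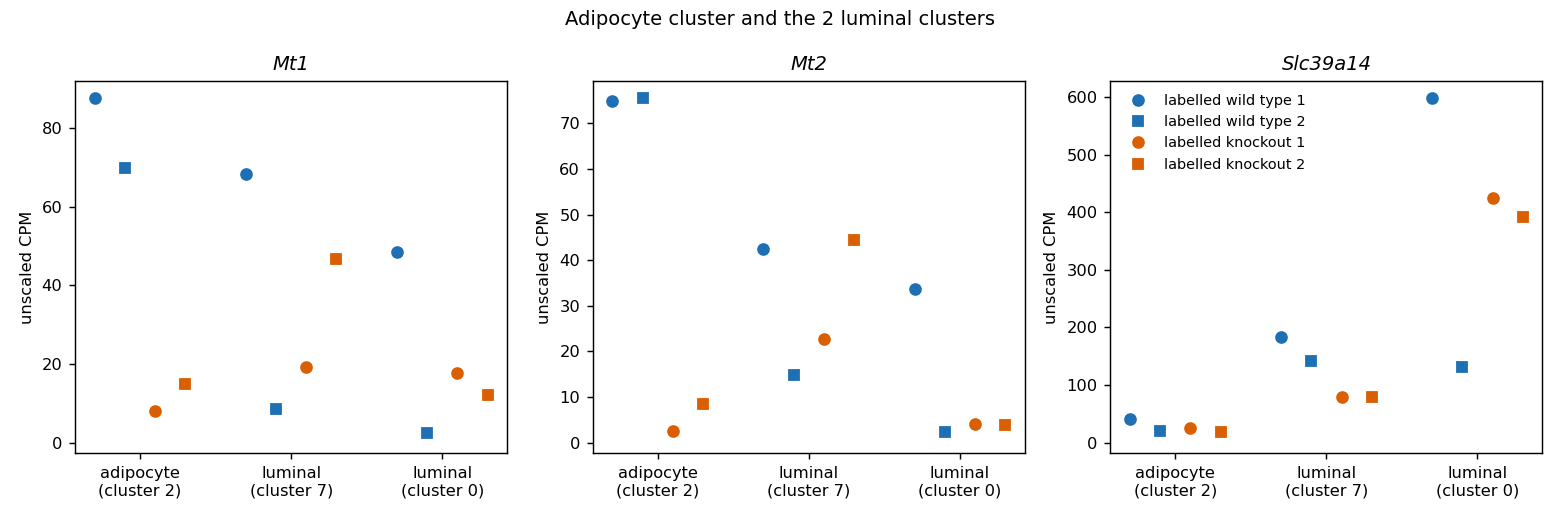
Unscaled CPM of Mt1, Mt2 and Slc39a14 in the adipocyte cluster and both luminal clusters, 1 point per library. Mt2 in cluster 7 spans 14.9 to 44.4 with the labelled groups interleaved, while Slc39a14 is highest in cluster 0 in 3 of the 4 libraries and slightly higher in cluster 7 than in cluster 0 in labelled wild type 2.

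Which class held most metallothionein depended on the library. Over the 10 classes, adipocytes ranked first for Mt1, at 46.2 ± 41.1 CPM (SD, n = 4 libraries), followed by luminal nuclei at 24.3 ± 20.2 and dendritic nuclei at 23.1 ± 26.0 CPM. T or NK nuclei were lowest at 7.09 ± 7.23 CPM. Neighbours in this order lay within each other's spread. Adipocytes were the highest class for both genes in both libraries labelled wild type, luminal nuclei in labelled knockout 1, and dendritic nuclei in labelled knockout 2. That dendritic value, 60.4 CPM for Mt1, came from 22 UMIs in 10 of 144 nuclei, and 1 nucleus gave 10 of them.

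Classes were then compared within libraries, with all 10 classes in 1 fit and the library as a block. Levels in this fit share 1 scaling over all classes and so differ from those above. Mt1 was higher in adipocyte than in macrophage nuclei by 2.41 on the log2 scale (SE 0.64, adjusted p = 0.00315 by edgeR's quasi-likelihood test), with adipocytes higher in 4 of 4 libraries. Against progenitors the difference was 1.41 (SE 0.50, edgeR adjusted p = 0.0309). Against vascular endothelial nuclei it was 1.83 (SE 0.69, edgeR adjusted p = 0.0448), each with adipocytes higher in 4 of 4 libraries on this shared scaling. In labelled knockout 2, unscaled Mt1 stood at 14.9 CPM in adipocytes, 14.8 in progenitors and 17.5 in vascular endothelial nuclei. The order of adipocyte and vascular endothelial nuclei in that library thus depends on the scaling. Adipocytes were called above these classes for 16.8% (macrophage), 13.9% (progenitor) and 15.2% (vascular endothelial) of the 17923 genes tested, and below them for 17.5%, 15.2% and 12.7%. Without labelled wild type 1 the Mt1 calls were lost, at edgeR adjusted p = 0.094, 0.089 and 0.233 against macrophage, progenitor and vascular endothelial nuclei. Without labelled wild type 2 the progenitor and vascular endothelial calls were lost, at 0.139 and 0.0934, and without labelled knockout 1 the vascular endothelial call, at 0.0552.

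Mt2 was higher in adipocyte than in macrophage nuclei by 2.71 (SE 0.69, edgeR adjusted p = 0.00199) and than in progenitors by 1.56 (SE 0.53, edgeR adjusted p = 0.0240), with the adipocyte value above in 4 of 4 libraries each. Labelled knockout 1 adds little to that count, since its 7 adipocyte Mt2 UMIs, against 1 in progenitors and 0 in macrophages, are read as background above. Without it the progenitor contrast had an edgeR adjusted p of 0.0349. The Mt2 difference from vascular endothelial nuclei, 1.66 (SE 0.72), did not pass at an edgeR adjusted p of 0.0861. The progenitor call was lost without labelled wild type 2, at 0.178. With only nuclei of at least 1000 UMIs and 500 genes, the progenitor contrasts had adjusted p = 0.0533 for Mt1 and 0.051 for Mt2, and the Mt1 contrast with vascular endothelial nuclei 0.132.

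Mtf1, whose protein senses zinc and switches on metallothionein genes, varied little between the labelled groups in adipocytes. It lies on chromosome 4, at chr4:124802104-124849800, and stood at 36.2, 39.3, 33.9 and 29.7 CPM in adipocyte nuclei. The groups did not overlap, but the log2 difference of -0.25 (SE 0.40) was smaller than its error. Over all nuclei it stood at 47.5, 47.5, 46.8 and 46.8 CPM, a log2 difference of -0.02 (SE 0.44). Dendritic nuclei ranked highest, at 106 ± 33.6 CPM (SD, n = 4), and adipocytes lowest, at 34.8 ± 4.05 CPM. Progenitor nuclei, at 38.1 ± 5.08 CPM, lay within 1 SD of adipocytes, and luminal nuclei, at 40.0 ± 4.21 CPM, just above it. Mtf1 was above in the libraries labelled knockout without overlap in 2 of the 10 classes, below in 2 and overlapping in 6. In dendritic nuclei, 1 of the classes with labelled knockout below, 18.4% of genes had that order. None of the adipocyte contrasts passed, with differences of 0.04, 0.09 and -0.10 against progenitor, vascular endothelial and macrophage nuclei. These contrasts share 1 scaling over all classes, while the ranked levels were scaled within each class. By the contrasts adipocytes were not lowest, so their rank for Mtf1 depends on the scaling.

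Slc30a1 encodes the zinc exporter of the plasma membrane, itself an MTF1 target, and was found at low counts. It lies at chr1:191906767-191913247, and adipocyte nuclei held 21, 2, 16 and 40 UMIs, or 3.71, 1.25, 5.27 and 4.44 CPM. Both libraries labelled knockout were above both labelled wild type, with a log2 difference of 0.78 (SE 0.71) close to its error. Vascular endothelial nuclei ranked highest at 13.8 ± 8.04 CPM and adipocytes lowest at 3.67 ± 1.74 CPM, on levels scaled within each class. B nuclei, at 3.82 ± 2.90 CPM, lay within the spread of adipocytes. The adipocyte contrast with vascular endothelial nuclei, -1.34 (SE 0.53), had an edgeR adjusted p of 0.0503, and it passed at 0.0481 without labelled knockout 1.

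Slc30a10, known in humans and mice for manganese export, was barely detected. It lies at chr1:185454848-185468762. Adipocyte nuclei held 2, 11, 1 and 5 UMIs, too few for the filter on low counts, with labelled wild type 2 apart at 6.86 CPM. Vascular endothelial and macrophage nuclei held 0 UMIs in every library, so it was not detectable there at this depth.

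Slc39a10, a zinc importer of the plasma membrane, ranked lowest in adipocytes, at 18.7 ± 3.95 CPM (SD, n = 4), on levels scaled within each class. Luminal nuclei came next at 24.3 ± 1.82 CPM, and their contrast with adipocytes was not tested. It lies on the minus strand at chr1:46807544-46892852. Its adipocyte levels were 16.8, 14.97, 18.8 and 24.1 CPM, both libraries labelled knockout above both labelled wild type, with a log2 difference of 0.43 (SE 0.45). Over all nuclei the groups overlapped, at 29.5, 29.3, 24.3 and 39.7 CPM. Against vascular endothelial nuclei, the highest class at 63.7 ± 17.7 CPM, adipocytes were lower by a log2 difference of -1.20 (SE 0.29, edgeR adjusted p = 8.09e-04), in 4 of 4 libraries. Adipocytes were called below vascular endothelial nuclei for 12.7% of genes. The contrasts with progenitor and macrophage nuclei, -0.59 and -0.65, did not pass, at edgeR adjusted p = 0.0706 and 0.0569.

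Slc39a14 encodes an importer of zinc, iron and manganese and was a transcript of the mammary luminal cells more than of the fat cells. It lies on chromosome 14, minus strand, at chr14:70303469-70351425. Luminal nuclei held 505, 151, 344 and 291 CPM in labelled wild type 1 and 2 and labelled knockout 1 and 2, with overlapping groups. Adipocyte nuclei held 43.2, 20.0, 23.4 and 19.8 CPM, also overlapping, with a log2 difference of -0.59 (SE 0.42). In every library luminal nuclei were above adipocyte nuclei, a contrast that was not tested. Luminal nuclei carried 78.1%, 45.0%, 72.6% and 55.0% of all Slc39a14 UMIs while holding 27.4%, 20.9%, 26.6% and 13.8% of all UMIs.

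The luminal share of nuclei with an Slc39a14 UMI was 40.5%, 20.1%, 32.4% and 36.7%. T or NK nuclei, at 3.42%, 2.88%, 2.75% and 5.18%, give the level in a class with less of it. They lay in the middle of the class order for this gene and are no reference for stray RNA here. Their level was 47.0 ± 3.23 CPM, above adipocytes at 26.6 ± 11.2 CPM and below myoepithelial and luminal nuclei. Thinned to 500 UMIs the luminal shares were 19.4%, 5.42%, 14.1% and 11.4%, against 2.25%, 1.99%, 1.85% and 1.81% in T or NK nuclei. Within the luminal class, cluster 0 held 599, 132, 424 and 391 unscaled CPM and cluster 7 held 184, 141, 78.9 and 79.3. Cluster 0 was the higher in 3 libraries, and in labelled wild type 2 both were near each other. Myoepithelial nuclei came second in the class order at 100 ± 6.14 CPM, with labelled groups overlapping.

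Over all nuclei Slc39a14 stood at 197, 57.1, 112 and 88.2 CPM, a log2 difference of -0.35 (SE 0.47) that turned to 0.81 without labelled wild type 1. Adipocytes were lower than vascular endothelial nuclei by a log2 difference of -1.34 (SE 0.30, edgeR adjusted p = 4.38e-04), in 3 of 4 libraries, labelled wild type 2 being the exception with 1 UMI in vascular nuclei. That call was lost without labelled knockout 2, at edgeR adjusted p = 0.087. The progenitor contrast, -0.64 (SE 0.27), did not pass, at 0.0756, and passed at 0.0121 without labelled wild type 1.

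**Figure D4:**
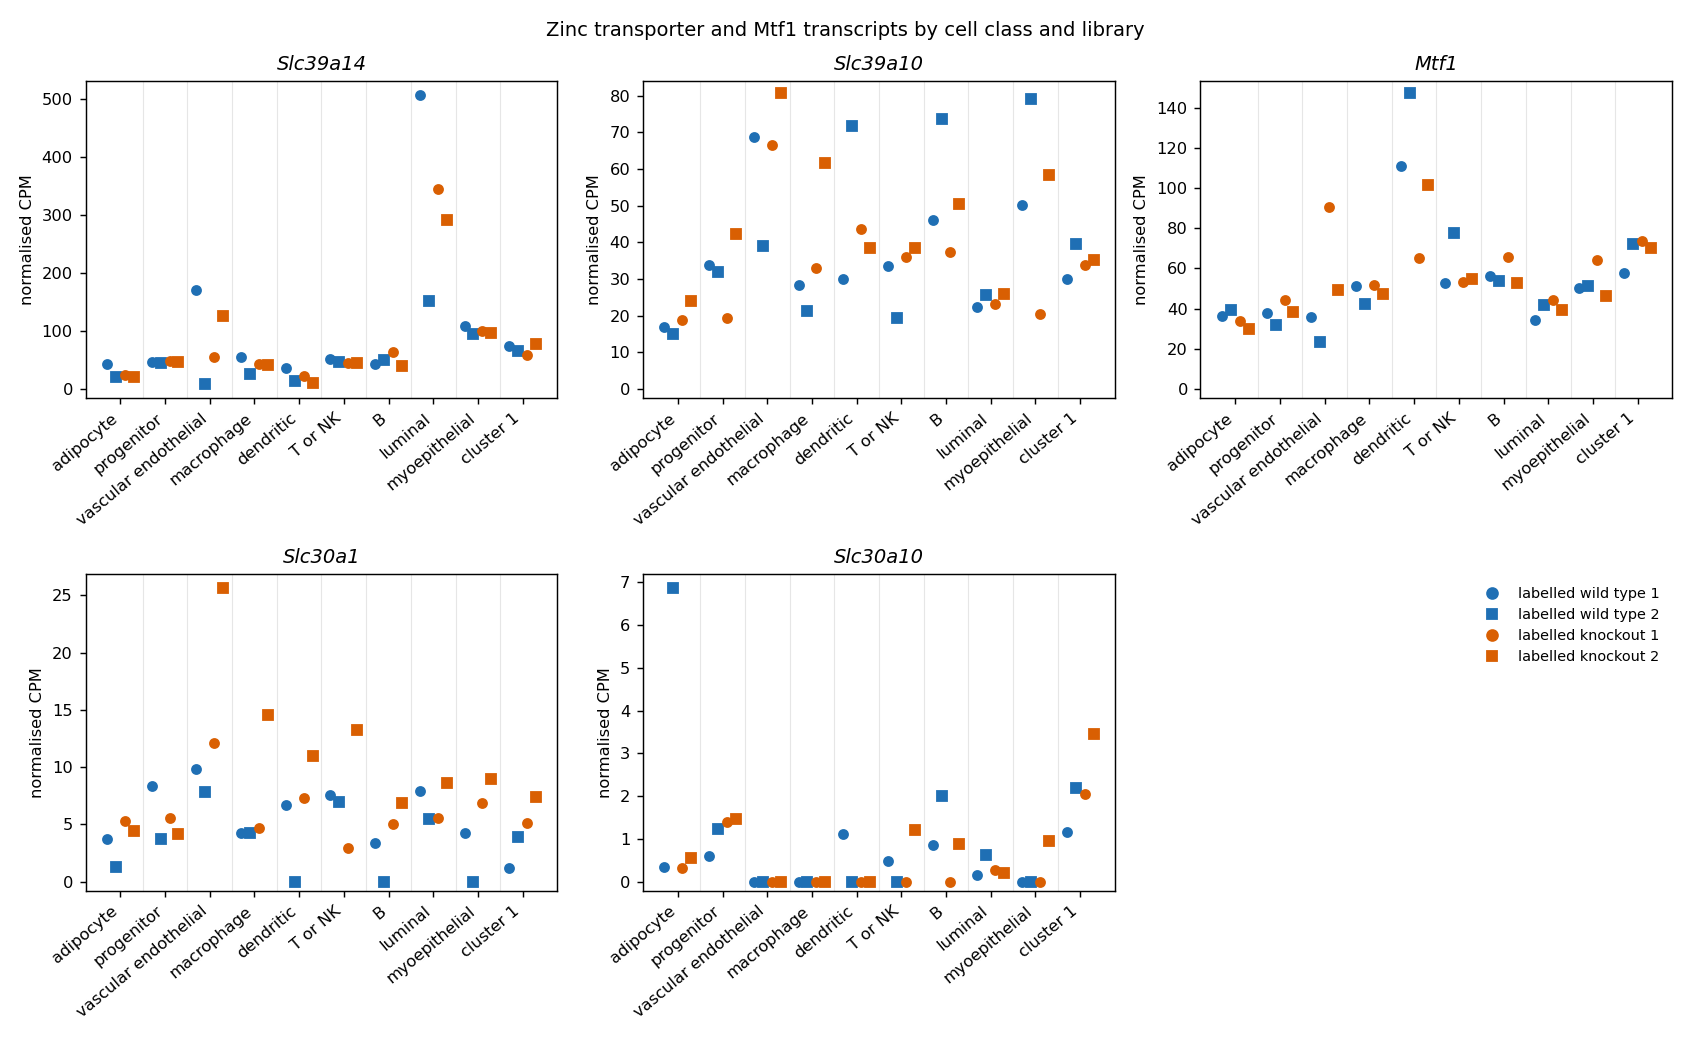
Normalised CPM (linear axes that differ between panels) of Slc39a14, Slc39a10, Mtf1, Slc30a1 and Slc30a10 in 10 cell classes, 1 point per library. Luminal nuclei stand at 151 to 505 CPM for Slc39a14, and dendritic nuclei at 65.4 to 147 CPM for Mtf1.

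**Figure D5:**
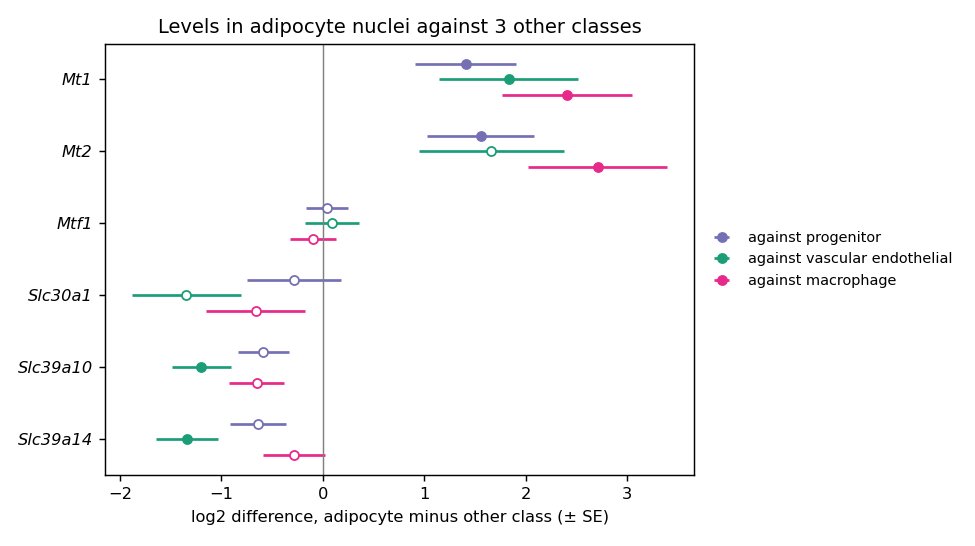
Log2 difference of adipocyte nuclei minus 3 other classes for the 6 genes that passed the filter on low counts, with SE bars, from the fit with library as a block. Filled points passed an adjusted p of 0.05; Mt1 and Mt2 lie to the right of 0, and Slc39a10, Slc39a14 and Slc30a1 to the left.

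Outside the set of 7 genes, no tested transporter of either family passed the test between the labelled groups. The transporters within the set were given no such test. Of the 8 other SLC30 genes, 7 were tested in adipocytes and 0 passed in either direction by edgeR, with a median log2 difference of -0.16 beside 0.02 over all genes. Of the 12 other SLC39 genes, 8 were tested in adipocytes and 0 passed, with a median of 0.14. The same held over all nuclei, with 0 of 8 and 0 of 11, and in progenitors, with 0 of 6 and 0 of 6. In these 6 counts 0 genes had an unadjusted edgeR p under 0.05. DESeq2 called 0 as well, among fewer genes. It gave an adjusted p to 5 SLC30 and 6 SLC39 genes in adipocytes, 8 and 10 over all nuclei, and 5 and 4 in progenitors. The most abundant SLC30 gene in adipocytes was Slc30a9, a mitochondrial zinc transporter, at 142, 125, 90.9 and 157 CPM with overlapping groups. Slc30a7 and Slc30a5, which load zinc into the secretory pathway, followed at 47.6 ± 5.89 and 40.7 ± 14.0 CPM (SD, n = 4). Of the importers, Slc39a11 at 64.8 ± 8.86 CPM, Slc39a9 at 47.1 ± 8.65 CPM and Slc39a13 at 11.6 ± 6.47 CPM were the highest in adipocytes. Mt3 and Mt4 were near 0 and went untested, and Slc39a7 was at 0 UMIs in every library.

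Between classes some of these transporters passed the test. Slc30a9 was higher in adipocyte than in progenitor nuclei by 0.55 (SE 0.19, edgeR adjusted p = 0.0188) and also passed against vascular endothelial and macrophage nuclei, in 4 of 4 libraries each. Without labelled wild type 1 these 3 calls were lost, at edgeR adjusted p = 0.136, 0.0838 and 0.064, and without labelled knockout 2 the progenitor call, at 0.134. Slc30a7 was lower in adipocytes than in progenitors by a log2 difference of -0.65 (SE 0.19, edgeR adjusted p = 0.00702) and than in macrophages by one of -0.98 (SE 0.20, edgeR adjusted p = 4.59e-05). The progenitor call of Slc30a7 was lost without labelled wild type 2 (0.083) or labelled knockout 1 (0.0503). In each of the 3 contrasts 1 of 6 tested SLC30 genes was higher and 1 lower in adipocytes, the lower one against vascular endothelial nuclei being Slc30a4. Those counts are near the shares over all genes, 13.9% to 16.8% higher and 12.7% to 17.5% lower, and are no result about the family. Of 9 tested SLC39 genes, edgeR called 0 higher in adipocytes in any contrast, and 0 were higher at an unadjusted p under 0.05. Those lower were 1 against progenitors (Slc39a6), 3 against macrophages (Slc39a4, Slc39a11 and Slc39a12) and 0 against vascular endothelial nuclei, where 1 had an unadjusted p under 0.05. The Slc30a4 call was lost without labelled wild type 1 (edgeR adjusted p = 0.248) or labelled knockout 2 (0.116), and the Slc39a4 call without labelled wild type 2 (0.227). Slc30a4, Slc39a4, Slc39a6 and Slc39a12 are named after their values were seen.

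Lists of other stimuli and metals around metallothioneins were read beside them. These lists were chosen with earlier results of these data known. Their calls between the labelled groups are therefore a description and no independent evidence. The glucocorticoid target list had 3 of 12 tested genes lower and 0 higher in adipocytes of the libraries labelled knockout, with a median log2 difference of -0.69. Over all genes tested in adipocytes, 0.186% were called lower. The median of this list was also below 0 in every other named class, from -0.95 in progenitors to -0.11 in T or NK nuclei. It was thus not particular to adipocytes, and edgeR also called Fkbp5 lower in vascular endothelial nuclei. Fkbp5, a cochaperone of the glucocorticoid receptor, stood at 1548, 989, 74.5 and 357 CPM in adipocytes, a log2 difference of -2.55 (SE 0.56, edgeR adjusted p = 0.0255). Pdk4, which restrains glucose oxidation, stood at 120, 145, 42.2 and 38.8 CPM (log2 difference -1.71, SE 0.38, edgeR adjusted p = 0.0211). Ddit4, an inhibitor of mTORC1, stood at 20.6, 8.11, 0.659 and 2.89 CPM (log2 difference -2.87, SE 0.63, edgeR adjusted p = 0.0202). Without labelled wild type 1 none of the 3 passed edgeR's test, at adjusted p of 0.578, 0.457 and 1 for Fkbp5, Pdk4 and Ddit4. Without labelled wild type 2 only Ddit4 passed, and without labelled knockout 1 Fkbp5 did not, at 0.0727. In adipocytes DESeq2 called Pdk4 and Ddit4 of this list. In progenitors edgeR called 0 of 12, with 6 at an unadjusted p under 0.05, and DESeq2 called Errfi1. For Fkbp5, Pdk4 and Ddit4 in adipocytes, both libraries labelled knockout lay below both labelled wild type, as for Mt1 and Mt2. The part of these genes in the metallothionein difference was not tested. The lists of NRF2 targets (11 tested), copper handling (8), iron handling (9) and STAT3 and acute phase (10) had 0 genes called in adipocytes by edgeR. DESeq2 gave an adjusted p to 8, 7, 7 and 8 of these genes and called 0. At an unadjusted edgeR p under 0.05 the lists had 1, 0, 1 and 5. Their median log2 differences were -0.13, -0.20, 0.11 and -0.80, the last with 8 of 10 genes below 0, beside 9 of 12 in the glucocorticoid list and a median of 0.02 over all genes.

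Across the 40 sums of library and class, Mt2 was the gene whose log2 level ran most like Mt1 among 12293 genes, with a Pearson r of 0.80. Next to Mt1 came Ddhd2 (r = 0.75), Whamm (0.75), Sqstm1 (0.73) and Fam13a (0.72). Next to Mt2, after Mt1, came Hbp1 (0.74), 6230400D17Rik (0.73), Ezh1 (0.73) and March3 (0.72). Mtf1 ran with neither, at r of 0.07 with Mt1 and -0.10 with Mt2. Slc39a14 ran most like Lurap1l (0.87), Ccdc129 (0.86) and Gm46367 (0.85), and Ccdc129 is also a leading gene of luminal cluster 0. These sums share libraries and classes and differ in depth, so the values describe likeness and carry no test.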

How the data were processed

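Nuclei of inguinal white adipose tissue from 4 mice were sequenced as 4 libraries. The authors deposited raw UMI counts per gene and barcode. Per the submitters' processing notes, Seurat 4.3.0 and the build GRCm38 (mm10) were used, and the sources used here name no aligner. Deposited barcodes held at least 500 UMIs.

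Filters of 500 or more UMIs, 300 or more genes and no more than 10% mitochondrial UMIs left 22139962, 8623219, 13533002 and 34819482 UMIs in labelled wild type 1 and 2 and labelled knockout 1 and 2. Scrublet called 3, 0, 0 and 0 doublets, which has not worked, so doublets remain. Nuclei were clustered with scanpy 1.11.5 (2000 variable genes, none of them one of the 7 genes, 30 components, 15 neighbours, Leiden resolution 1). A cluster was named when at least 3 markers of a type were among its 100 leading genes.

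Counts were summed per library and class, filtered with filterByExpr, scaled by TMM and tested with the edgeR 4.0.16 quasi-likelihood F test (robust, two-sided, R 4.3.3), with Benjamini-Hochberg adjustment over all genes tested and a threshold of 0.05. SE is the absolute log2 difference divided by the square root of F. Class contrasts had the library as a block. The code was tested on simulated counts with a fixed dispersion and planted changes. That dispersion was not fitted to these libraries, so the simulation does not give error rates for them. Whether the replicates differ beyond technical spread is stated only by titles that name separate mice, and with 2 libraries a group an exact permutation test cannot pass 0.05. DESeq2 1.42.0 served as an alternative. Likeness used log2(CPM + 1) over genes with a mean of at least 10 CPM.

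The 7 genes and the lists were chosen with earlier results of these data known. Named genes were the 7, each listed gene called in all nuclei, adipocytes or progenitors, the 3 highest SLC30 and SLC39 genes in adipocytes, and the 5 (Slc39a14: 3) most alike in pattern.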

Additional observations from a re-analysis of the deposited data

Results flagged for a closer look

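A few differences between the labelled groups had opposite signs in 2 classes, with the groups apart in both. The differences between classes were not tested. For Mtf1 the log2 difference, labelled knockout minus labelled wild type, was -0.25 in adipocytes and 0.21 in progenitors, which differ by -0.45. Against vascular endothelial nuclei, where it was 1.06, adipocytes differed by -1.31. Dendritic nuclei, at -0.52 for Mtf1, differed from progenitors by -0.73 and from vascular endothelial nuclei by -1.58. For Slc39a14 the value in T or NK nuclei, -0.14, differed from that in progenitors, 0.06, by -0.21. The vascular endothelial counts of Mtf1 were 11, 3, 15 and 25 UMIs. Groups that do not overlap are common there: labelled knockout was above for 18.5% of genes in vascular endothelial nuclei and below for 18.4% in dendritic and 10.1% in T or NK nuclei. In the vascular endothelial class the lymphatic markers had a median log2 difference of -2.14, with 3 of 5 called lower (Prox1, Mmrn1 and Reln), and their part in the Mtf1 value was not tested.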

How the results depend on the processing

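In adipocytes, Mt1 and Mt2 were lower in the libraries labelled knockout under all 13 alternatives, from -3.49 to -2.27 and from -5.04 to -3.01 on the log2 scale. The alternative of nuclei with 3 or more adipocyte markers was not of adipocyte nuclei alone. Of these nuclei, 2723 of 3905, 773 of 1013, 1720 of 2845 and 2293 of 8368 lay in the adipocyte cluster. The order is labelled wild type 1 and 2, then labelled knockout 1 and 2. Over all nuclei Mt1 and Mt2 ranged from -2.28 to -0.59 and from -3.37 to -1.58 under 10 alternatives. In progenitors Mt2 ranged from -4.28 to -2.38 under 8, and gave no value without labelled wild type 1 or with a stricter nucleus filter, where it did not pass the filter on low counts. Of 29 genes called over all nuclei, DESeq2's Wald test gave 14, nuclei of at least 1000 UMIs and 500 genes 3, and leaving out a library 5 to 18. Of 62 in adipocytes, no filter on low counts gave 40, nuclei with 3 or more adipocyte markers 5, and leaving out a library 9 to 185. Of 6 in progenitors, DESeq2's Wald test gave 25, no filter 36, the stricter nucleus filter 18, and leaving out a library 10 to 77. With the replicate number as a block (replicate block) the counts were 4, 17 and 2. Same-numbered libraries deviated in opposite ways (correlation -0.61, -0.39 and -0.29), so the numbers pair nothing, and a crossed pairing, added after seeing the data, gave 39, 375 and 86. Among class contrasts that did not pass, leaving out a library in turn gave both signs for Slc30a1 against progenitors (-0.45 to 0.12, labelled knockout 2 giving no value), for Mtf1 against vascular endothelial nuclei (-0.074 to 0.37, below 0 without labelled wild type 1 or, at -0.048, 2) and for Mtf1 against macrophages (-0.12 to 0.071). The last also turned with DESeq2 size factors (0.042) and with no filter (0.19). The cause of these changes was not tested. Depth limits Slc30a10, Slc30a1 and metallothioneins in most classes outside adipocytes, where some libraries hold only a few UMIs. Luminal nuclei held more in most libraries, at 321, 10, 65 and 102 Mt1 UMIs and 216, 16, 30 and 70 Mt2 UMIs. These are in the order labelled wild type 1 and 2, then labelled knockout 1 and 2. Adipocytes of labelled knockout 1 also held few, at 22 Mt1 and 7 Mt2 UMIs.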
